A study of Mus musculus with 9 samples.

Results

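Genes for Fc receptors and the proteins that signal for them were chosen by gene symbol, 8 out of the 24346 genes listed per sample, and compared between 3 groups of lung macrophages from C57BL/6 mice. The 8 genes were Fcgr1, Fcgr3, Fcgr4, Fcgr2b, Fcer1g, Syk, Fcgrt and Fcrls. Ctrl-AM were alveolar macrophages of vehicle-injected control mice, Tumor-AM were alveolar macrophages of mice whose left lung had been injected with Lewis lung carcinoma (LLC) cells carrying the red fluorescent protein tdTomato, and Tumor-macrophage were the Siglec-F-negative, F4/80- and CD11b-positive macrophages of such tumor-bearing lungs. All mice were at postnatal week 10, and each group held 3 samples. The study's methods give female mice, experimental and control mice that were bred separately, enzyme digestion of the lungs, and an anti-CD16/32 antibody put on the cells before sorting in all groups. That antibody binds the products of Fcgr3 and Fcgr2b, and its part in the values was not tested.

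Fc receptors bind the constant part of antibodies. In the mouse, the receptors encoded by Fcgr1, Fcgr3 and Fcgr4 activate the cell through a shared partner, the FcRγ chain encoded by Fcer1g, whose cytoplasmic ITAM motif is phosphorylated by Src-family kinases and then binds the kinase Syk. The receptor encoded by Fcgr2b carries an inhibitory ITIM motif instead and recruits the lipid phosphatase SHIP-1, encoded by Inpp5d. Fcgrt encodes the heavy chain of the neonatal Fc receptor FcRn, which pairs with β2-microglobulin and returns IgG and albumin from endosomes to the surface. Fcrls encodes an Fc receptor-like protein with a scavenger receptor domain that is widely used as a marker of microglia.

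The promoters of the members that moved most are shown for the short motifs that they hold. The letters GGAAGT, the core bound by ETS-family factors such as PU.1, and TTCNNNGAA, the site bound by STAT dimers, were searched on both strands in the 300 bases from 250 before to 50 after each start site given by RefSeq on GRCm38.p6, and the motifs did not overlap. All 8 members had at least 1 such promoter. The ETS letters were present in a promoter of 5 of the 8 members and of 26.5% of all genes, or in 23.8% of the 32851 promoters, and the STAT letters in 1 of the 8 members, of 9.55% of all genes and in 8.30% of promoters. The sequences of 4 members that were higher in Tumor-macrophage and of Fcgrt, which was lower, are given 5′ to 3′ on the strand of the gene, with matches in capitals.
Fcgr1, chr3:96293920-96294219, minus strand: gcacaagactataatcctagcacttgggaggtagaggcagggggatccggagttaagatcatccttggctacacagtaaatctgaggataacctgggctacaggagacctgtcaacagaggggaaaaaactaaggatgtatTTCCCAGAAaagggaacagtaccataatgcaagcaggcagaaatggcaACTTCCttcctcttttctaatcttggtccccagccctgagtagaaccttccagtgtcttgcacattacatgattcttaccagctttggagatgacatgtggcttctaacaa
Fcgr4, chr1:171018676-171018975, plus strand: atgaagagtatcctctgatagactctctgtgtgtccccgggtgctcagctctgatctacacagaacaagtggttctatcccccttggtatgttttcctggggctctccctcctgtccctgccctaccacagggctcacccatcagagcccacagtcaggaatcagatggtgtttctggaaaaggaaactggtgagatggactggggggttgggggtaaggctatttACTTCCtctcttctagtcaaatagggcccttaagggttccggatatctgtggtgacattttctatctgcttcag
Fcgr2b, chr1:170976022-170976321, minus strand: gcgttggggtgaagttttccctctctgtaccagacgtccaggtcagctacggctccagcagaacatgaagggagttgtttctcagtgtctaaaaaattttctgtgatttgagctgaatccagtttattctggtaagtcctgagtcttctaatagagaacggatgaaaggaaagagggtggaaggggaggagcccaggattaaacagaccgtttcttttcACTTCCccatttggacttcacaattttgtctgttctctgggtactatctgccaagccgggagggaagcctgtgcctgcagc
Fcrls, chr3:87263475-87263774, minus strand: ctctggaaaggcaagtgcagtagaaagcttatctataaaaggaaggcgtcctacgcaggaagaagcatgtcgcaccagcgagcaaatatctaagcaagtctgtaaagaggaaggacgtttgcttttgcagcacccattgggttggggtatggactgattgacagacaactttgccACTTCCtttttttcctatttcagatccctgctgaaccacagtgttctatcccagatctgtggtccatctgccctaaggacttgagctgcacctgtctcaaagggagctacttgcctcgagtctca
Fcgrt, chr7:45103773-45104072, minus strand: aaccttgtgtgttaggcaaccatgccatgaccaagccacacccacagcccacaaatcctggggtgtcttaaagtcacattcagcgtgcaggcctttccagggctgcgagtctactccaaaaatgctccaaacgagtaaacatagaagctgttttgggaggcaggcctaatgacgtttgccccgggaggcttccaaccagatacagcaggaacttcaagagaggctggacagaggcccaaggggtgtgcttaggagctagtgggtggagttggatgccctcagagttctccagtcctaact
In Fcgr1, Fcgr4, Fcgr2b and Fcrls the capitals ACTTCC, which read GGAAGT on the other strand, began 61, 24, 31 and 75 bases before the start site. In Fcgr1 the capitals TTCCCAGAA lay 109 to 101 bases before it. Syk held the ETS letters at its second start site only, and the windows of Fcgr3, Fcer1g and Fcgrt held neither motif.

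Gene expression was measured by RNA-seq of sorted cells and is given as FPKM, a fragment count divided by transcript length and by the depth of the sample. The smallest steps between FPKM values of genes with 1 transcript gave 11000000 to 13900000 reads per sample. The sorted populations matched their labels: the summed FPKM of 13 alveolar macrophage markers was 31866 to 37196 for Ctrl-AM, 27822 to 44108 for Tumor-AM, then 324 to 626 for Tumor-macrophage, and that of 11 monocyte and monocyte-derived macrophage markers was 250 to 282, 305 to 393 and 14608 to 15296. The p-values below test a difference of group means against the spread of samples within groups, pooled over the 3 groups. They come from limma on log2(FPKM + 1) over the 10686 genes that reached 1 FPKM in 3 or more samples, adjusted by the Benjamini-Hochberg method, and a change is called at an adjusted p under 0.05. In bulk RNA a smaller share of expressing cells and less RNA per cell cannot be told apart.

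All 8 members passed the filter and were measured in every sample. Fcer1g was among the most abundant messages of these macrophages, at rank 20 of all genes by mean FPKM in Ctrl-AM and rank 21 in both Tumor-AM and Tumor-macrophage. Among the members, FPKM in Ctrl-AM fell in the order Fcer1g, Fcgr3, Fcgrt, Fcgr2b, Fcgr4, Syk, Fcgr1 and Fcrls, with no overlap of sample values between neighbours. In Tumor-AM the order was the same, but the values of Fcgrt overlapped those of Fcgr2b. In Tumor-macrophage the order was Fcer1g, Fcgr3, Fcgr2b, Fcgr4, Fcrls, Fcgrt, Fcgr1 and Syk, and there the values of Fcrls overlapped those of Fcgrt and of Fcgr1. Fcgrt went from rank 267 in Ctrl-AM to rank 821 in Tumor-macrophage, and Fcrls from rank 10278 to rank 769.

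**Figure D1:**
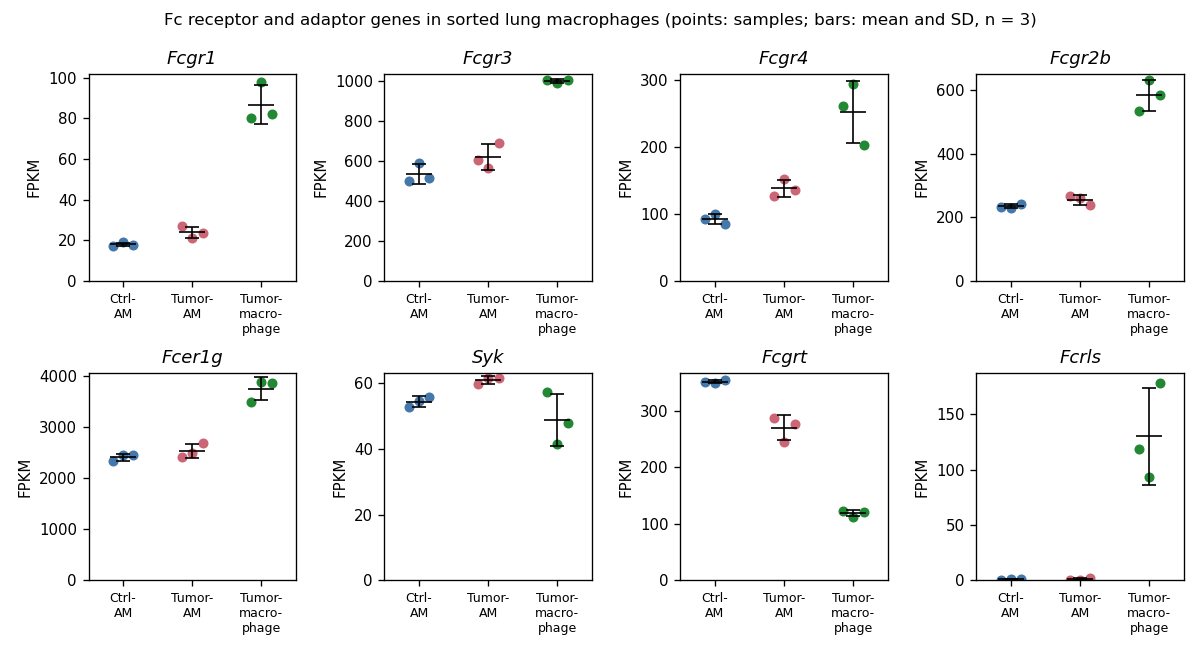
FPKM of the 8 members in each sample (points), with the mean and SD of each group of 3 (bars). Each panel has its own axis from 0. The Tumor-macrophage samples lie above both groups of alveolar macrophages for Fcgr1, Fcgr3, Fcgr4, Fcgr2b, Fcer1g and Fcrls, and below both for Fcgrt.

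In alveolar macrophages of tumor-bearing lungs, 3 of the 8 members differed from the control: the activating receptors Fcgr4 and Fcgr1 were higher and Fcgrt was lower. Over all genes tested in this comparison 10.3% were called, 7.11% as higher and 3.18% as lower. The 8 members had a median log2 change of 0.14, against 0.014 for all tested genes. Of these calls, only that of Fcgrt held in each of the 18 alternative fits. The split of calls over all genes depended on scaling: it was 760 higher and 340 lower as deposited, 475 and 824 after rescaling every sample to the same FPKM sum (TPM), and 607 and 446 after quantile normalization. The TPM scaling moved the median of all genes to -0.11, and relative to that median Fcgr4 was at 0.54, Fcgr1 at 0.36 and Fcgrt at -0.41, with 0 members called higher and 1, Fcgrt, called lower.

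Between the macrophage populations of the tumor-bearing lungs, 8 of the 8 members were called, 6 as higher in Tumor-macrophage (Fcrls, Fcgr1, Fcgr2b, Fcgr4, Fcgr3 and Fcer1g) and 2 as lower (Fcgrt and Syk). The background was wide, with 48.6% of all genes called, 24.2% as higher and 24.4% as lower. Against Ctrl-AM, 7 of the 8 members were called in Tumor-macrophage, 6 as higher, from 0.64 (Fcer1g) to 6.14 (Fcrls) on the log2 scale, and Fcgrt as lower (-1.56), where 54.8% of all genes were called, 27.7% as higher and 27.1% as lower. In this last comparison the split over all genes was 2960 higher and 2900 lower as deposited and 2130 and 4409 after TPM scaling, which moved the median of all genes to -0.22. The comparisons share samples: Tumor-AM stands in the first pair of contrasts and Ctrl-AM in the first and the last.

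**Figure D2:**
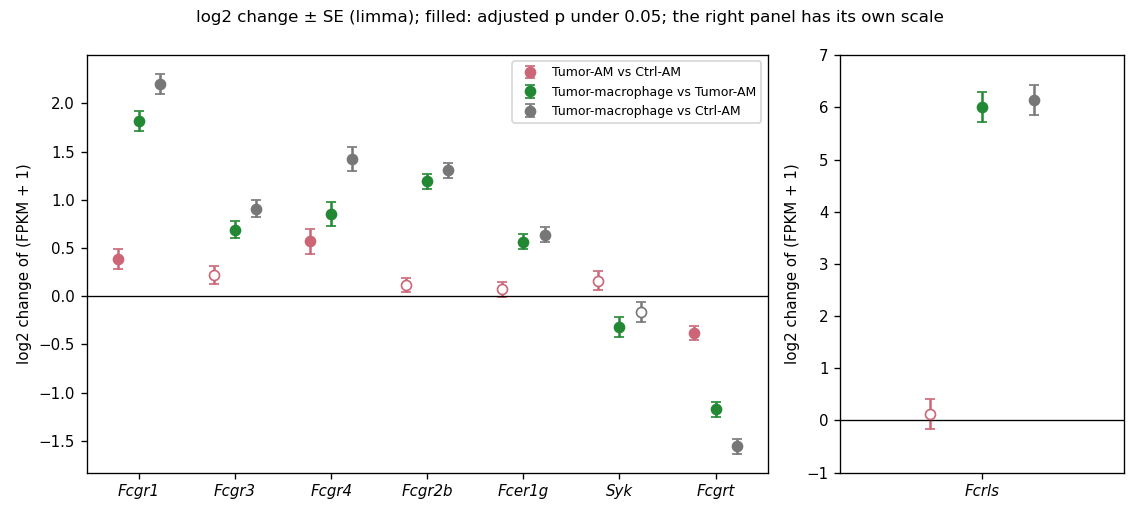
log2 change of (FPKM + 1) with its standard error for each member in the 3 comparisons. Filled points passed an adjusted p under 0.05 in limma, open points did not, and Fcrls has a panel and scale of its own. Fcgrt lies below 0 in all 3 comparisons, and Syk is the member that lies above 0 in Tumor-AM vs Ctrl-AM and below 0 in the others.

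Fcgr1 encodes the high-affinity IgG receptor CD64. The Ctrl-AM samples stood at 17.4, 19.0 and 17.8 FPKM, the Tumor-AM samples at 26.8, 21.3 and 23.7 and the Tumor-macrophage samples at 80.0, 98.0 and 82.4, with no overlap between the groups. The fold of the means was 1.33 in Tumor-AM over Ctrl-AM (log2 change 0.38 ± 0.10 SE, limma adjusted p = 0.0445) and 3.63 in Tumor-macrophage over Tumor-AM (1.82 ± 0.10, limma adjusted p = 1.68e-07). The first of these changes was not called in 11 of the 18 alternative fits, where adjusted p reached 0.198 under TPM scaling. It was lost without Ctrl-AM 1 (limma adjusted p = 0.145), Ctrl-AM 2 (0.0806), Ctrl-AM 3 (0.129), Tumor-AM 1 (0.133), Tumor-AM 3 (0.101) or Tumor-macrophage 3 (0.0581). The second was called in all 18.

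Fcgr4 encodes CD16-2, an activating receptor for IgG2a and IgG2b. FPKM was 92.8, 99.7 and 84.9 for Ctrl-AM, 127, 152 and 135 for Tumor-AM, and 261, 294 and 202 for Tumor-macrophage. All Tumor-AM values lay above all Ctrl-AM values and below all Tumor-macrophage values. The fold was 1.49 in Tumor-AM over Ctrl-AM (log2 change 0.57 ± 0.13 SE, limma adjusted p = 0.0206) and 1.83 in Tumor-macrophage over Tumor-AM (0.85 ± 0.13, limma adjusted p = 0.000265). The change in Tumor-AM was lost in 6 of the 18 alternative fits: with no filter on low values (limma adjusted p = 0.0569), under TPM scaling (0.0613), and without Ctrl-AM 1 (0.0694), Ctrl-AM 3 (0.0855), Tumor-AM 2 (0.0631) or Tumor-AM 3 (0.0564). The mean of Tumor-AM lay 28.4% of the way from Ctrl-AM to Tumor-macrophage for Fcgr4, against 8.54% for Fcgr1. For the monocyte-derived macrophage markers C1qa, C1qb and C1qc, which encode complement C1q, these shares were 0.331%, 0.532% and 0.335%.

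Fcgr3, which encodes the low-affinity activating receptor CD16, was the most abundant of the IgG receptors in every sample. FPKM measured 499, 592 and 513 for Ctrl-AM, 608, 566 and 693 for Tumor-AM, then 1009, 989 and 1007 for Tumor-macrophage. The alveolar macrophage groups overlapped (log2 change 0.22 ± 0.091 SE, limma adjusted p = 0.171), and the Tumor-macrophage samples, which had an SD of 10.7 FPKM, were 1.61 times the Tumor-AM mean (log2 change 0.69 ± 0.091, limma adjusted p = 9.69e-05).

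Fcgr2b, the inhibitory receptor, was higher in Tumor-macrophage than in either group of alveolar macrophages. The Ctrl-AM samples stood at 233, 229 and 241 FPKM, the Tumor-AM samples at 267, 259 and 237 and the Tumor-macrophage samples at 533, 629 and 585. The alveolar macrophage groups overlapped (log2 change 0.12 ± 0.077 SE, limma adjusted p = 0.402), and under TPM scaling the sign of that difference turned (-0.022). Tumor-macrophage held 2.29 times the Tumor-AM level (log2 change 1.19 ± 0.077, limma adjusted p = 4.19e-07). Of the 75-base windows of the Fcgr2b transcript, 9.25% also occur in other transcripts (Cplx2, Rab3c, Gm47409 or Fcgr3), as do 7.38% of those of Fcgr3, all of them in Fcgr2b, and none of those of the other 6 members. How the authors' counting dealt with reads from such stretches is not given in the sources used here.

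The ITAM adaptor Fcer1g was at 2325, 2449 and 2443 FPKM for Ctrl-AM, 2415, 2500 and 2685 for Tumor-AM, then 3484, 3887 and 3867 for Tumor-macrophage. Its difference between the alveolar macrophage groups was not called (log2 change 0.07 ± 0.078 SE, limma adjusted p = 0.625) and was -0.19 under quantile normalization and -0.066 under TPM scaling. In Tumor-macrophage it was 1.48 times the Tumor-AM level (log2 change 0.56 ± 0.078, limma adjusted p = 0.00014), which was 0.15 under quantile normalization (adjusted p = 0.147), the only alternative of the 18 in which that change was lost. Against Ctrl-AM the change was 0.64 ± 0.078 (limma adjusted p = 4.78e-05), and -0.039 under quantile normalization (adjusted p = 0.705).

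Syk was lower, not higher, in Tumor-macrophage than in Tumor-AM. FPKM measured 52.7, 54.7 and 56.0 for Ctrl-AM, 59.8, 61.7 and 61.6 for Tumor-AM, then 57.4, 41.7 and 47.9 for Tumor-macrophage. The Tumor-AM samples lay above those of both other groups, and the difference from Ctrl-AM, 0.16 ± 0.10 SE on the log2 scale, was not called (limma adjusted p = 0.375). Tumor-macrophage was 0.803 times the Tumor-AM level (log2 change -0.32 ± 0.10, limma adjusted p = 0.0234). That call was lost in 6 of the 18 alternative fits, among them those without Tumor-AM 2 (limma adjusted p = 0.0569), Tumor-AM 3 (0.059), Tumor-macrophage 2 (0.0678) or Tumor-macrophage 3 (0.0598). The difference between Tumor-macrophage and Ctrl-AM was -0.16 ± 0.10 and was not called (limma adjusted p = 0.206), but it was called under TPM scaling (-0.40, or -0.17 relative to the median of all genes, adjusted p = 0.00574) and without Tumor-macrophage 1 (-0.28, adjusted p = 0.0168).

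Fcgrt fell in both steps, in which Fcgr1 and Fcgr4 rose. The Ctrl-AM samples stood at 350, 350 and 355 FPKM, the Tumor-AM samples at 288, 245 and 277 and the Tumor-macrophage samples at 123, 112 and 121. The groups did not overlap, and the SD of the Ctrl-AM samples was 2.74 FPKM. The level in Tumor-AM was 0.767 times that in Ctrl-AM (log2 change -0.38 ± 0.073 SE, limma adjusted p = 0.00927), and the level in Tumor-macrophage was 0.44 times that in Tumor-AM (-1.18 ± 0.073, limma adjusted p = 3.23e-07). Both calls held in all 18 alternative fits. B2m, which encodes the light chain of FcRn and of all MHC class I molecules, moved the other way: it was 2402, 2543 and 2527 FPKM for Ctrl-AM, 3483, 4356 and 3631 for Tumor-AM, then 7327, 7582 and 8912 for Tumor-macrophage. B2m was higher by 0.61 ± 0.11 SE on the log2 scale in Tumor-AM than in Ctrl-AM (limma adjusted p = 0.00595). It was higher by 1.06 ± 0.11 in Tumor-macrophage than in Tumor-AM (limma adjusted p = 1.41e-05). The second change of B2m was called in all 18 alternative fits but came to 0.36 under quantile normalization (limma adjusted p = 0.0155). The FPKM of B2m per FPKM of Fcgrt within a sample was 7.08 ± 0.205 (SD, n = 3) for Ctrl-AM, 14.3 ± 3.02 for Tumor-AM and 66.9 ± 6.93 for Tumor-macrophage.

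Fcrls showed the largest change of the 8 members. Its FPKM was 0.27, 1.12 and 1.16 for Ctrl-AM, 0.63, 0.72 and 1.72 for Tumor-AM, then 119, 93.1 and 179 for Tumor-macrophage. These values correspond to about 6.90 to 33.5 reads per Ctrl-AM sample, 14.9 to 48.5 per Tumor-AM sample and 2180 to 4571 per Tumor-macrophage sample, so that the ratio of the means, 127 for Tumor-macrophage over Tumor-AM, rests on few reads in its denominator. On the log2(FPKM + 1) scale, which understates the change of low genes, the difference was 6.01 ± 0.29 SE (limma adjusted p = 4.76e-08) and was called in all 18 alternative fits. The alveolar macrophage groups overlapped (log2 change 0.13 ± 0.29, limma adjusted p = 0.836), and that sign turned without Ctrl-AM 1 (-0.12) or Tumor-AM 3 (-0.11).

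The balance between receptors is set side by side here as ratios of FPKM within each sample, with no test. The 4 IgG receptors Fcgr1, Fcgr2b, Fcgr3 and Fcgr4 summed to 880 ± 52.7 FPKM (SD, n = 3) for Ctrl-AM, 1039 ± 46.4 for Tumor-AM and 1923 ± 75.8 for Tumor-macrophage. Fcgr3 made up 60.7% ± 2.01, 59.8% ± 3.53 and 52.2% ± 2.55 of these sums, Fcgr2b 26.7% ± 2.05, 24.6% ± 2.41 and 30.3% ± 1.69, Fcgr4 10.51% ± 0.56, 13.3% ± 1.62 and 13.1% ± 2.03, and Fcgr1 2.05% ± 0.033, 2.31% ± 0.263 and 4.51% ± 0.328. The share of Fcgr3 was lower, and those of Fcgr2b and Fcgr1 higher, in every Tumor-macrophage sample than in every alveolar macrophage sample, while the share of Fcgr4 overlapped.

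The inhibitory Fcgr2b per activating Fcgr3 was 0.441 ± 0.0471 (SD, n = 3) for Ctrl-AM, 0.413 ± 0.0621 for Tumor-AM and 0.582 ± 0.054 for Tumor-macrophage, whose lowest sample (0.528) lay above the highest of the others (0.47). Per FPKM of Fcgr1, Fcgr3 and Fcgr4 together, Fcgr2b stood at 0.365 ± 0.0376, 0.327 ± 0.0416 and 0.435 ± 0.0343. The FcRγ chain gene Fcer1g per summed FPKM of Fcgr1, Fcgr3 and Fcgr4 was 3.74 ± 0.268, 3.23 ± 0.129 and 2.80 ± 0.206, with no overlap between the 3 groups. Tyrobp, the gene of the related ITAM adaptor DAP12, was 1.97 ± 0.0168 times Fcer1g for Ctrl-AM, 1.81 ± 0.0718 times for Tumor-AM and 1.26 ± 0.0947 times for Tumor-macrophage. Inpp5d per Syk, the phosphatase on the inhibitory arm over the kinase on the activating arm, was 0.485 ± 0.0203, 0.464 ± 0.0116 and 1.19 ± 0.0834.

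**Figure D3:**
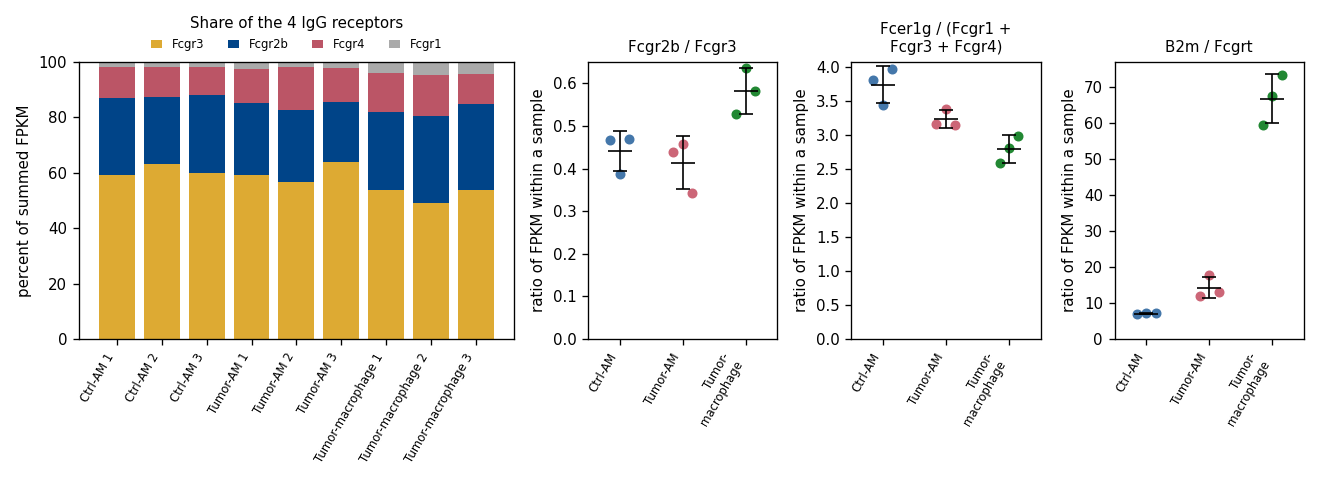
Left, the share of Fcgr1, Fcgr2b, Fcgr3 and Fcgr4 in their summed FPKM in each sample. Right, 3 ratios of FPKM within a sample (points), with the mean and SD of each group (n = 3). Fcgr2b per Fcgr3 is highest in the Tumor-macrophage samples and Fcer1g per activating receptor is lowest there. B2m per Fcgrt is 7.08 in Ctrl-AM and 66.9 in Tumor-macrophage.

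Beyond the 8 members, 71 genes that act with Fc receptors were followed as a list, of which 64 were tested. In Tumor-AM against Ctrl-AM, 10 of the 64 were called (15.6%, beside 10.3% of all tested genes), 9 as higher and 1 as lower, and the list's median log2 change was 0.064 beside 0.014 for all tested genes. Besides B2m, the largest increases among called genes that averaged 5 FPKM or more in Tumor-AM were in Lat2, an adaptor of the LAT family (1.45 ± 0.25 SE, limma adjusted p = 0.00498), in Malt1, the paracaspase downstream of CARD9 (0.76 ± 0.14, limma adjusted p = 0.00714), in Pirb, an inhibitory receptor (0.50 ± 0.076, limma adjusted p = 0.00309), and in the Src-family kinase Fyn (0.44 ± 0.10, limma adjusted p = 0.0248). Blnk (0.86, limma adjusted p = 0.0107) and Vav3 (0.58, limma adjusted p = 0.0262) were called below that level. The adaptor Sh3bp2 was lower (-0.39 ± 0.078, limma adjusted p = 0.0112). Without Ctrl-AM 3 the count was 5 of 64, and the calls of Fyn (adjusted p = 0.0895) and Sh3bp2 (0.054) were lost. Fyn was also lost under TPM scaling (0.32, adjusted p = 0.11) and without Ctrl-AM 1 (0.0962), Tumor-AM 1 (0.0828) or Tumor-AM 3 (0.0777).

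Between Tumor-macrophage and Tumor-AM, 46 of the 64 were called, 32 as higher and 14 as lower, where 48.6% of all tested genes were called, and the list's median log2 change was 0.19 beside 0.0012 for all tested genes. Of the 64, Fcrl1, Fcrl5, Fcrla and Src passed the filter on low values only through the Tumor-macrophage samples, and of the other 60 genes 28 were higher and 14 lower. The largest increases were in Lat2, from 7.35 to 13.6 FPKM in Tumor-AM to 197 to 209 FPKM (log2 change 4.25 ± 0.25 SE, limma adjusted p = 1.75e-07), and in Blnk, the adaptor through which Syk reaches phospholipase C in B cells, from 2.15 to 3.80 FPKM to 60.2 to 82.6 FPKM (4.21 ± 0.17, limma adjusted p = 1.29e-08). Blnk and Lat2 lay 61.6 and 65.8 times above their Ctrl-AM means. The largest decreases were in Pag1, which anchors the Src-inhibiting kinase Csk (-1.74 ± 0.11, limma adjusted p = 2.80e-07), in the Src-family kinase Fgr (-1.16 ± 0.078, limma adjusted p = 5.72e-07), in the PI3K adaptor Pik3ap1 (-1.13 ± 0.092, limma adjusted p = 2.54e-06) and in the inhibitory adaptor Dok3 (0.501 times the Tumor-AM level, limma adjusted p = 6.22e-05).

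By role, the Src-family kinases moved in both directions, with Fgr lower. Lyn, a kinase known for phosphorylating Fc receptor ITAMs, rose by 0.45 ± 0.061 SE (limma adjusted p = 0.00012). In this comparison 24.2% of all tested genes were called as higher and 24.4% as lower. Of 13 inhibitors, 6 were higher and 3 lower. Inpp5d rose from 28.3 ± 0.518 to 58.2 ± 6.17 FPKM (SD, n = 3), by 1.01 ± 0.091 SE on the log2 scale (limma adjusted p = 5.46e-06), and the phosphatase SHP-1 gene Ptpn6 rose by 0.31 ± 0.083 (limma adjusted p = 0.0102). Of 22 scaffolds and effectors, 12 were higher and 6 lower. Of 15 genes of actin and the phagocytic cup, 4 were higher and 3 lower. These calls made up 46.7% of the 15, near the 48.6% of all tested genes, and the 15 changes lay between -0.29 and 0.56. Tyrobp was not called (0.04 ± 0.079, limma adjusted p = 0.728), with 4429 to 4763 FPKM in Tumor-AM and 4479 to 5039 in Tumor-macrophage. Against Ctrl-AM, 46 of the 64 were called in Tumor-macrophage, 33 as higher and 13 as lower, where 54.8% of all tested genes were called. The median was 0.34, beside -0.0082 for all tested genes, and without the 4 genes that passed the filter only through Tumor-macrophage 30 were higher and 13 lower (median 0.26).

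**Figure D4:**
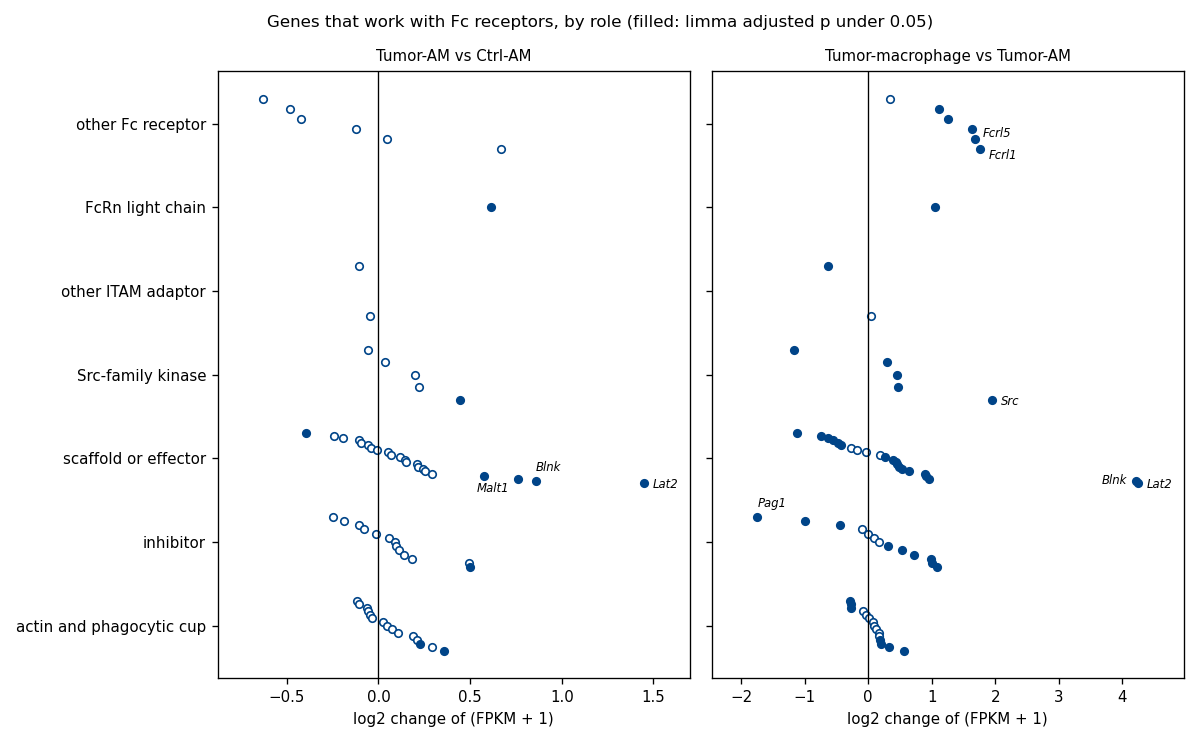
log2 change of (FPKM + 1) for the 64 tested genes that act with Fc receptors, by role, in Tumor-AM vs Ctrl-AM and in Tumor-macrophage vs Tumor-AM. Filled points passed an adjusted p under 0.05 in limma, and the 2 panels have different scales. In the first comparison 10 genes passed and in the second 46, with Lat2 and Blnk farthest to the right in both.

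The remaining Fc receptor genes of the list were scarce in these cells. Of 12 other Fc receptors 6 were tested. None of the 6 was called in Tumor-AM against Ctrl-AM by limma, near the 10.3% of all tested genes called there. Fcrlb (0.67, unadjusted p = 0.0457) was the only 1 at an unadjusted limma p under 0.05. In Tumor-macrophage, Fcrlb measured 6.26 to 16.7 FPKM and Fcmr 2.80 to 6.37. Both were called as higher than in Tumor-AM, as were 24.2% of all tested genes. Fcrl1 (1.54 to 5.11 FPKM in Tumor-macrophage), Fcrl5 (1.04 to 3.78) and Fcrla (0.963 to 3.03) passed the filter only through that group, and Fcrl1 and Fcrl5 were under 1 FPKM in all alveolar macrophage samples. These 5 genes are known mostly from B cells. B-cell markers moved with them: the B-cell marker list summed to 3.19 to 8.72 FPKM in Tumor-AM and 31.7 to 83.4 in Tumor-macrophage. No gene of that list was at 0 in all samples. Its part in the levels of these 5 genes, and in those of Fcgr2b and Blnk, which B cells also express, was not tested. In Tumor-macrophage 2 the B-cell gene Jchain was at 0.139 FPKM, against 25.0 and 33.5 in the other samples of the group. Other B-cell markers were also lowest there but remained present. Cd79a was at 10.9 FPKM, against 22.1 and 18.3, and Cd79b at 14.7, against 22.9 and 17.7. In that sample Fcgr2b was highest (629 FPKM) and Blnk lowest (60.2 FPKM, against 76.3 and 82.6).

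Markers of other cells that carry Fc receptors were set beside the members. Mast cell and basophil markers summed to 0.248 to 0.937 FPKM in Tumor-AM and 4.90 to 38.0 in Tumor-macrophage, NK and T cell markers to 7.44 to 23.3 and 30.1 to 59.3, and neutrophil markers to 111 to 165 and 97.6 to 152. Dendritic cell markers summed to 7.81 to 14.9 FPKM in Tumor-AM and 25.2 to 56.5 in Tumor-macrophage. Of these lists, Cpa3 and Kit (mast cells and basophils), Cd3e and Cd4 (T cells), Mmp9 (neutrophils), and Xcr1 and Zbtb46 (dendritic cells) passed the filter only through Tumor-macrophage. The eosinophil markers reached 1.35 FPKM in sum, with Epx at 0 in every sample. In Tumor-AM against Ctrl-AM, 7.11% of all tested genes were called as higher and 3.18% as lower. Of 13 alveolar macrophage markers, 2 (Pparg and Cidec) were called as lower. Of 11 monocyte and monocyte-derived macrophage markers, 7 were called as higher, beside Fcgr4 and Fcgr1. So were 2 of 3 tested fibroblast genes (3.72 to 6.70 FPKM in sum in Ctrl-AM, 12.8 to 85.3 in Tumor-AM). The part of these other cells in the members' levels was not tested. Of 11 immunoglobulin and related ligand genes, 1, Jchain, was a row of the files, and the others were not analysed here.

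In the genome (mm10, GENCODE vM21), 4 members lie on chromosome 1 within 276 kb: Fcgr2b at chr1:170958617-170976547 on the minus strand, Fcgr4 at chr1:171018920-171029761 on the plus strand, Fcgr3 at chr1:171051174-171064935 and Fcer1g at chr1:171229572-171234365, both on the minus strand. Of 11 other coding genes between or next to them 6 were tested. None of the 6 was called by limma in Tumor-AM, where Fcgr4 was, but only 10.3% of all tested genes were called there. The result for the 6 is near that share. Of the 6, Fcrlb had an unadjusted limma p under 0.05 (0.0457). Between Tumor-macrophage and Tumor-AM, Fcrlb was higher by 1.63 and Fcrla, which passed the filter only through Tumor-macrophage, by 1.12, while Sdhc, a subunit of complex II between Fcgr3 and Fcer1g, was not called (0.15 ± 0.082 SE, limma adjusted p = 0.143). The other members are Fcrls at chr3:87250758-87263738 and Fcgr1 at chr3:96282909-96293969, Fcgrt at chr7:45092990-45103851, all on the minus strand, and Syk at chr13:52583173-52648792 on the plus strand. Exons of Fcgr2b overlap Gm38204 on the opposite strand, and whether the counting used strand is not given in the sources used here.

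**Figure D5:**
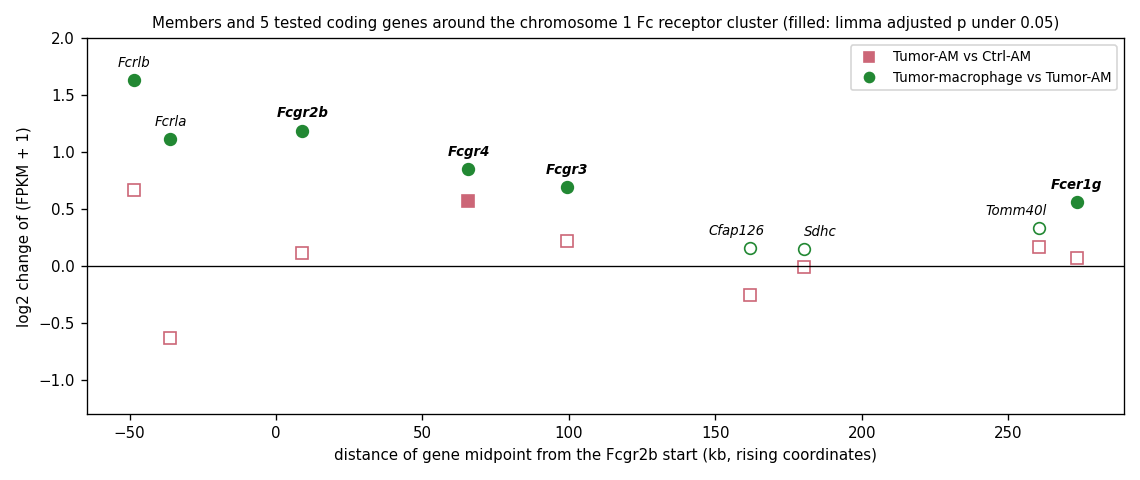
log2 change of (FPKM + 1) of the chromosome 1 members (bold) and of 5 tested coding genes around them, by the distance of each gene's midpoint from the Fcgr2b start, in Tumor-AM vs Ctrl-AM (squares) and Tumor-macrophage vs Tumor-AM (circles). Filled points passed an adjusted p under 0.05 in limma. The 4 members are filled circles above 0, while Sdhc, between Fcgr3 and Fcer1g, is an open circle at 0.15.

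The genes whose levels ran most like each member over the 9 samples were taken from 5337 genes with a mean FPKM of at least 10, by Pearson's r of log2(FPKM + 1). These values are a description, since the 9 points share the 3 groups. Fcgr1 ran most like Iigp1, an interferon-inducible GTPase (r = 0.999), then Gatm and Igsf6. Fcgr4 ran most like the proteasome subunit Psmc3 (r = 0.991), the necroptosis kinase Ripk3 (0.989) and Trafd1 (0.988). Fcgr3 ran most like Plekho1 (r = 0.997), Fcgr2b like Adssl1 (0.998) and the ETS-family repressor Etv6 (0.997), and Fcer1g like the copper chaperone Atox1 (0.993), Decr2 and Ifitm3. Fcrls ran most like Pea15a (0.997), Adap2 and Limd2, and Fcgrt like Cpne5 (0.997), Cdc42ep3 and Coq5. Syk had the weakest match, with Med25 at r = 0.95.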

How the data were processed

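RNA-seq was deposited for 9 samples in 3 groups of 3. The labels give polyA RNA, the study's methods describe total RNA of sorted cells, SMART-Seq HT cDNA, Nextera libraries and single-end sequencing, and the submitters' processing notes name TopHat2 2.1.1, Bowtie2 and Cuffdiff 2.2.1 with mm10. The authors deposited FPKM values per gene and sample, which are not counts. The annotation, the handling of reads with several origins and the use of strand are not given in the sources used here.

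The values were analysed as log2(FPKM + 1) with limma 3.58.1 (R 4.3.3, empirical Bayes with an intensity trend, 2-sided) over 10686 genes that reached 1 FPKM in 3 or more samples, in 1 fit of all 9 samples, with adjusted p under 0.05 as the threshold. The study's web tool settings were not used. The script was tested on simulated data. The members and gene lists were chosen with earlier results of these data known. Pathway genes were named per comparison by size of change among those called, up to 5 rising and 5 falling, where the higher group averaged 5 FPKM or more, and other list members are named by their role. The 3 genes most like each member were ranked by Pearson's r. The labels do not say that the samples of a group came from separate mice, and the study's methods give 3 mice per population.

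Depth was estimated from the FPKM step that 1 read makes in genes with a single transcript of at least 800 bases, with 200 bases subtracted from the length, where 78.2% to 84.9% of low values lay within 0.15 of a whole read. With the full length it came to 9950000 to 12500000 reads. Read numbers per gene are estimates from it. Positions are from GENCODE vM21, and shared 75-base windows from its transcripts. The 18 alternatives were another pseudocount (0.1), no filter or a filter of 5 FPKM, quantile, TPM and median-ratio scaling, a constant prior variance, the compared groups alone, a replicate block, and each of the 9 samples left out. Some genes of the lists and regions described are not reported here.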

Additional observations from a re-analysis of the deposited data

How the results depend on the processing

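Of 432 values of the 8 members over 18 alternatives and 3 comparisons, 400 kept their direction and their side of the threshold, 24 lost the call, 2 gained one and 6 turned in direction. The 6 were, in Tumor-AM vs Ctrl-AM, Fcgr2b (-0.022) and Fcer1g (-0.066) under TPM scaling, Fcer1g (-0.19) under quantile normalization, and Fcrls without Ctrl-AM 1 (-0.12) or Tumor-AM 3 (-0.11), where leaving out 1 sample gave -0.12 to 0.26, and, in Tumor-macrophage vs Ctrl-AM, Fcer1g under quantile normalization (-0.039). For the named pathway genes 462 of 468 values kept both and 6 lost the call. The count of members called in Tumor-AM vs Ctrl-AM fell from 3 to 1 with no filter on low values and under TPM scaling, and ranged from 1 to 3 with 1 sample left out, with 1 without Ctrl-AM 1, Ctrl-AM 3 or Tumor-AM 3. In both comparisons with Tumor-macrophage it ranged from 7 to 8 with 1 sample left out and was 6 under quantile normalization. With 1 sample left out, the pathway list count in Tumor-AM vs Ctrl-AM ranged from 5 to 12 and that of all genes from 538 to 1254, against 1100 with all samples, and fell by over 1.5 times without Ctrl-AM 1 (538), Ctrl-AM 2 (690), Ctrl-AM 3 (549), Tumor-AM 1 (733) or Tumor-AM 3 (674). Fewer samples remain in these fits, and other causes were not tested. Same-numbered samples of different groups deviated together weakly (r from -0.062 to 0.159 over 9 pairs, 2 above 0.1). For Tumor-AM with Tumor-macrophage r was 0.026, 0.096 and 0.109. Differently numbered samples were not correlated, so these values cannot show whether the numbers pair the samples. The labels do not say whether Tumor-AM and Tumor-macrophage samples came from the same mice. With a replicate block 938, 5069 and 5772 genes were called, and 2, 8 and 7 members, with Fcgr1 lost in Tumor-AM vs Ctrl-AM (adjusted p = 0.0772). FPKM understates low genes on the log2(FPKM + 1) scale, and Fcrls in alveolar macrophages rests on 6.90 to 48.5 estimated reads a sample.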
